A study of Mus musculus with 6 samples.

Results

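The genes described here are 5 neighbours on chromosome 16, *Adipoq*, *Rfc4*, *Eif4a2*, *Kng1* and *Kng2*, which the *Adipoq-Cre* transgene may carry, and 5 genes near *Tbx18* and *Trim43c* on chromosome 9, *Tbx18*, *Trim43a*, *Trim43b*, *Trim43c* and *9330159M07Rik*. They are 10 of the 24346 genes with measured values and were picked by symbol and position, with the FPKM (fragments scaled to exon length and to library size) of AdArmc5 KO against Armc5 flox as the contrast that named them. That contrast is therefore given for these genes as a description, without a test. It also served to choose the promoters that are shown, and no conclusion rests on it. RNA-seq was performed on the epididymal WAT of mice at 24 weeks of age that had been fasted for 24 h and refed for 6 h, with 3 libraries for each genotype. Armc5 flox, labelled as control, have exons 2 and 3 of *Armc5* flanked by LoxP sites. AdArmc5 KO carry the same floxed allele together with *Adipoq-Cre*, which is driven by the promoter of the adiponectin gene and removes these exons in adipocytes. The floxed allele and the fasting and refeeding are thus shared by both groups, and *Adipoq-Cre* is present only in AdArmc5 KO, so that the transgene itself and the loss of *Armc5* cannot be told apart in these libraries. Littermates were compared, but nothing in the labels says which libraries came from the same litter, and p-values measure only the spread between these samples. The RNA came from whole tissue, in which fewer cells of a type and less RNA per cell cannot be told apart.

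A transgene that is built in a bacterial artificial chromosome brings a long stretch of genomic DNA around the gene whose promoter it uses, so that intact neighbouring genes can travel with it and be present in extra copies. Such genes are called passengers. The insertion site can also lie close to other genes, whose transcription may be disturbed. Adiponectin is a hormone that adipocytes secrete in large amounts, and its gene is among the most active in white fat, whereas the kininogen genes *Kng1* and *Kng2* are chiefly expressed in the liver. No measurement here gives the copy number or the position of the transgene.

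On mm10, the chromosome 16 genes lie in one stretch in the order *Kng2*, *Kng1*, *Eif4a2*, *Rfc4* and *Adipoq*. *Adipoq* (NCBI Gene 11450) spans chr16:23146536-23157968 on the plus strand. *Rfc4* (NCBI Gene 106344) spans chr16:23113948-23127730 on the minus strand and ends 18.8 kb before *Adipoq*. *Eif4a2* (NCBI Gene 13682), at chr16:23107468-23114132 on the plus strand, overlaps the end of *Rfc4* by 185 bases. *Kng1* (NCBI Gene 16644), at chr16:23058220-23082078 on the plus strand, lies 64.5 kb from *Adipoq*, and *Kng2* (NCBI Gene 385643), at chr16:22985852-23029101 on the minus strand, lies 117 kb from it. On chromosome 9, *Tbx18* (NCBI Gene 76365) spans chr9:87702800-87731260 on the minus strand, 1107.9 kb before *Trim43c*. *Trim43a* (NCBI Gene 547109), *Trim43c* (NCBI Gene 666731) and *Trim43b* (NCBI Gene 666747) span chr9:88580891-88588824 (plus), chr9:88839164-88848190 (plus) and chr9:89084624-89092835 (minus). *9330159M07Rik* (NCBI Gene 319673) is annotated as a long noncoding RNA at chr9:88841798-88858870 on the minus strand, and 6393 bases of it lie opposite *Trim43c*.

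These overlaps bear on the values. In the GENCODE annotation, exons of *Trim43c* and *9330159M07Rik* share 768 bases on opposite strands, 38.6% of the exon bases of *Trim43c* and 14.4% of those of *9330159M07Rik*. Exons of *Eif4a2* and *Rfc4* share 194 bases, 3.63% and 12.7% of their exon bases. The library kit kept the strand, but whether strand was used when fragments were assigned to genes is not given in the sources used here, so the values of either pair may hold fragments of the partner. Copies are a further limit. Of the 100-base windows of the transcripts, the length of a read, 20.0% in *Trim43b*, 14.4% in *Trim43c*, 14.5% in *9330159M07Rik* and 13.4% in *Trim43a* occurred letter for letter in another gene on the same strand, against 4.93% in *Kng1* and 5.29% in *Kng2*, which share 160 windows with each other. For *9330159M07Rik*, 733 of these windows were shared with *9430037G07Rik*, a noncoding gene in the same region. No such window was found in *Adipoq*, *Rfc4* or *Tbx18*, and 4.32% of those of *Eif4a2* occurred in other genes. On the opposite strand, 736 windows of *Tbx18* (15.9%) occurred in the gene *D030062O11Rik*. The values of *Tbx18* may therefore also hold fragments of that gene.

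Promoters are shown for the hormone gene whose regulatory DNA drives Cre and for the genes of each chromosome whose FPKM separated the genotypes by the widest relative margin among those that reached an FPKM of 1 in 3 libraries. The sequences are RefSeq entries for GRCm38.p6 (mm10), from 250 bases before to 50 bases after the annotated start of each gene, and capitals mark matches on either strand to the CCAAT box, to the GC box GGGCGG or to the TATA box TATAAA, where a match on the other strand appears as its reverse complement. The promoters of *Adipoq* (chr16:23146286-23146585, plus strand), *Rfc4* (chr16:23127681-23127980, minus strand) and *9330159M07Rik* (chr9:88858821-88859120, minus strand, the one of 2 annotated promoters that lies at the 5′ end of the gene) read 5′ to 3′:
Adipoq: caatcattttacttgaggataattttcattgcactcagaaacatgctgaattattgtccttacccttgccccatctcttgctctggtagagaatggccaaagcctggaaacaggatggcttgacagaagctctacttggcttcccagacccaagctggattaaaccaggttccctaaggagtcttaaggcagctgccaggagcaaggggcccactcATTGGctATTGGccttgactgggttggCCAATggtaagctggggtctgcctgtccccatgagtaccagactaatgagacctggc
Rfc4: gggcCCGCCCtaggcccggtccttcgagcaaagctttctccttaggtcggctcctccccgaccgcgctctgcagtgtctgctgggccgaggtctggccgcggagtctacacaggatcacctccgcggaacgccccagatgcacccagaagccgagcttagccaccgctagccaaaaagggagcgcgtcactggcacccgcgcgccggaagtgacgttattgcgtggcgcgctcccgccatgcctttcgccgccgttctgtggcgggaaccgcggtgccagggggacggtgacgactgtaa
9330159M07Rik: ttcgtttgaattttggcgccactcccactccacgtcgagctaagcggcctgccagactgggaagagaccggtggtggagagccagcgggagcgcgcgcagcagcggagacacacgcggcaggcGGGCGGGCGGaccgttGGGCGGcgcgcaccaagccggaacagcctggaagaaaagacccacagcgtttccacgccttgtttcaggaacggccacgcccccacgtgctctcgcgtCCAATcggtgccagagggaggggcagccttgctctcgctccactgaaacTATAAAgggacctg
The *Adipoq* promoter held 3 CCAAT matches within 34 bases of the start, no CG and a GC content of 50%. That of *Rfc4* held 34 CG, a GC content of 67.3% and 1 GGGCGG match. That of *9330159M07Rik* held 30 CG, a GC content of 65.0%, 3 GGGCGG matches of which a pair overlaps, 1 CCAAT and 1 TATAAA. The TATAAA match begins 36 bases after the annotated start and thus lies downstream of it. Over all 32851 promoters of this length the median GC content was 52.7% with a median of 7 CG, and CCAAT was present in 37.4%, GGGCGG in 35.7% and TATAAA in 13.6%. The *Adipoq* promoter thus lies below the median CG count and both others lie well above it. Promoters were matched for 7 of the 10 genes, and *Kng1*, *Trim43b* and *Trim43c* had no entry.

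The libraries held between 25320770 and 38311554 fragments, as read from the steps of the normalized counts. Genotypes were compared with limma on log2(FPKM + 1) over the 12670 genes that reached an FPKM of 1 in 3 or more of the 6 libraries, a scale on which the change of a gene with a low FPKM is understated. Values of a group are given in the order of replicates 1, 2 and 3 throughout. *Armc5* was measured with 632, 581 and 552 fragments in the Armc5 flox libraries and with 321, 527 and 862 in the AdArmc5 KO libraries. Its FPKM in the library labelled AdArmc5 KO replicate 3, 5.82, lay above every Armc5 flox library. Its log2 fold change was −0.21 (standard error 0.17, adjusted p = 0.98 from limma). These values cover the whole gene in whole tissue, whereas only the floxed exons are removed, and only in adipocytes. They therefore cannot decide whether a label is right, and the floxed exons were not examined separately. By RT-qPCR in other mice, the paper found the loss in mature adipocytes and not in the stromal vascular fraction. The 16 adipocyte markers were all measured, with summed FPKM of 35910.4 to 51260 in Armc5 flox and 28127 to 41304 in AdArmc5 KO. Other cells were present unevenly. The ciliated cell factor *Foxj1* reached 76.0 FPKM in a single Armc5 flox library, replicate 1, and 62.4 in AdArmc5 KO replicate 2, while the others had 0.708 or less. *Akr1b7*, a gene of the vas deferens, stood at 3122 in the library labelled AdArmc5 KO replicate 3 and at no more than 17.4 elsewhere. The part of such other cells in the *Armc5* value of that library was not tested.

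In AdArmc5 KO, *Rfc4*, *Eif4a2* and *Kng1* were higher in every library than in any Armc5 flox library, and *Trim43c* and *9330159M07Rik* were lower in every library. The other 5 genes, *Adipoq* and *Kng2* on chromosome 16 and *Tbx18*, *Trim43a* and *Trim43b* on chromosome 9, overlapped between the genotypes. Among all 24346 genes, every AdArmc5 KO library lay above every Armc5 flox library for 3.44% and below for 3.04%. The 10 genes were named with this contrast in view, so their counts of 3 and 2 are no measure against those shares. An FPKM of 1 in 3 or more libraries was reached by 5 of the 10 genes, *Adipoq*, *Rfc4*, *Eif4a2*, *Tbx18* and *9330159M07Rik*. Of these, *9330159M07Rik* passed only through the 3 Armc5 flox libraries and *Tbx18* through 2 Armc5 flox libraries and AdArmc5 KO replicate 1. Among the 12670 tested genes the shares were 3.54% above and 5.26% below.

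**Figure D1:**
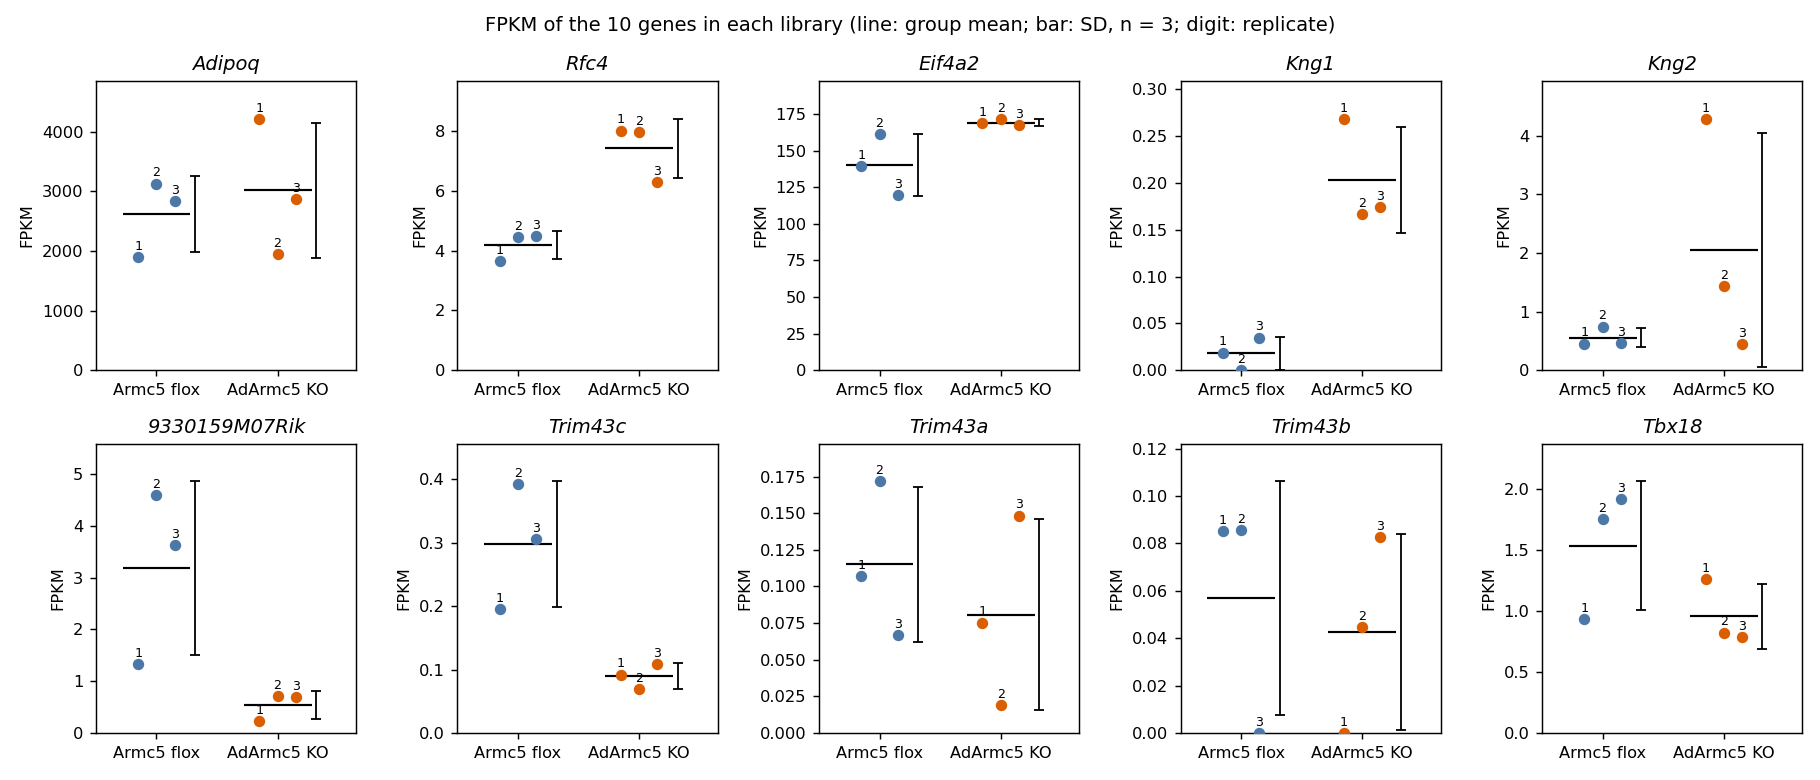
FPKM (vertical axis, linear, separate scale for each gene) of the 10 genes in the 3 Armc5 flox libraries (blue) and the 3 AdArmc5 KO libraries (orange), with the replicate number beside each point, the group mean as a line and the SD as a bar (n = 3). *Rfc4*, *Eif4a2* and *Kng1* have all orange points above the blue ones, *9330159M07Rik* and *Trim43c* have all orange points below, and the other 5 genes overlap.

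*Adipoq*, which encodes adiponectin, was the most abundant of the 10 genes and gave 0.406% to 0.794% of the summed FPKM of a library. Its FPKM was 1896, 3130.4 and 2833 in the Armc5 flox libraries and 4219, 1951 and 2876 in the AdArmc5 KO libraries. AdArmc5 KO replicate 1 was the highest, Armc5 flox replicate 1 the lowest, and AdArmc5 KO replicate 2 close to the lowest. Both low libraries are those in which *Foxj1* was high. The means were 2619.8 ± 644 in Armc5 flox and 3016 ± 1140.2 in AdArmc5 KO (SD, n = 3 each). The log2 fold change of 0.16 had no fixed sign, since leaving out AdArmc5 KO replicate 1 gave −0.11, leaving out Armc5 flox replicate 1 gave −0.05, and leaving out AdArmc5 KO replicate 2 gave 0.44.

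The other genes of the adiponectin pathway were taken from a list of receptors, signalling adaptors, chaperones and transcription factors. All 10 were tested and 0 passed an adjusted p under 0.05 in either direction, as was true of all 12670 genes in limma, where the smallest adjusted p was 0.58. The paper, with other software, reported genes under an FDR of 0.05 for the same comparison, *Scd1* among them. The absence of calls here therefore does not show that genes were unchanged. Without adjustment, a p under 0.05 in limma was given to 425 genes, 276 higher (2.18%) and 149 lower (1.18%) in AdArmc5 KO, and to none of the 10 pathway genes. Their median log2 fold change was −0.12, with 2 above and 8 below 0, where the median over all tested genes was −0.03. *Adipor1*, an adiponectin receptor, stood at 70.8 ± 7.35 FPKM in Armc5 flox and 63.4 ± 2.85 in AdArmc5 KO, and *Appl2*, an adaptor of the receptors, at 31.1 ± 10.3 and 23.7 ± 3.06 (SD, n = 3 each). *Pparg*, the adipogenic transcription factor that drives *Adipoq*, had a log2 fold change of −0.63 (standard error 0.30, adjusted p = 0.98 from limma). Of the 16 adipocyte markers, 7 lay above and 9 below 0 with a median of −0.23, and *Plin4*, which coats lipid droplets, was lower in every AdArmc5 KO library, at 556 ± 131 FPKM against 938 ± 144 (SD, n = 3 each, adjusted p = 0.98 from limma).

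*Rfc4*, the nearest of the listed neighbours, encodes a subunit of replication factor C, the clamp loader that places PCNA on DNA. Its FPKM was 3.64, 4.45 and 4.48 in the Armc5 flox libraries and 8.01, 7.97 and 6.29 in the AdArmc5 KO libraries. The genotypes were clearly apart, and the library labelled AdArmc5 KO replicate 3 had the lowest value of its group. These values rest on 128, 130 and 126 fragments in Armc5 flox and on 200, 266 and 266 in AdArmc5 KO. Of its exon bases, 12.7% lie opposite *Eif4a2*, which had 8190 to 16947 fragments in a library. Part of the *Rfc4* fragments may thus belong to *Eif4a2*, which was not tested. The *Rfc4* means were 4.19 ± 0.475 and 7.42 ± 0.984 (SD, n = 3 each), a ratio of 1.77, and the log2 fold change of 0.70 ranged from 0.62 to 0.80 when each library was left out in turn.

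Among the tested partners of *Rfc4*, none was higher and 1 was lower in every AdArmc5 KO library. Of 10 other genes of clamp loaders and their clamp, 7 were tested, 4 lay above and 3 below 0, 0 had a p under 0.05, and the median log2 fold change was 0.03. The summed FPKM of the list was 130.1 to 134 in Armc5 flox and 125 to 132 in AdArmc5 KO. *Rfc5*, another subunit of the same complex, stood at 4.23 ± 0.621 and 4.89 ± 0.933 FPKM, and *Pcna*, the clamp itself, at 45.8 ± 2.15 and 48.0 ± 2.80 (SD, n = 3 each). The remaining subunits, named here outside the rule for named genes, had log2 fold changes of 0.03 for *Rfc1*, −0.03 for *Rfc2* and 0.07 for *Rfc3*. *Chtf8*, of an alternative clamp loader, was lower in every AdArmc5 KO library (log2 fold change −0.27, standard error 0.13, adjusted p = 0.98 from limma).

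*Eif4a2* encodes a DEAD-box RNA helicase that unwinds the leader of mRNA as part of the cap-binding complex eIF4F. Its FPKM was 139, 161 and 119 in the Armc5 flox libraries and 169, 172 and 167 in the AdArmc5 KO libraries. All 3 AdArmc5 KO libraries lay close together and above the highest Armc5 flox library, by a narrow margin over replicate 2. The means were 140.0 ± 21.1 and 169 ± 2.35 (SD, n = 3 each), a ratio of 1.21. The log2 fold change was 0.28, and it was 0.17 without Armc5 flox replicate 3, the lowest library.

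The 12 other genes of eIF4F and its regulators had a median log2 fold change of −0.17, with 2 above and 10 below 0 and 0 under an unadjusted p of 0.05, where 7161 of all 12670 tested genes lay below 0. *Eif4a1*, the paralog that serves as the main helicase of the complex, stood at 299 ± 82.8 FPKM in Armc5 flox and 233 ± 31.4 in AdArmc5 KO (SD, n = 3 each). *Eif4a3*, a paralog that works in the exon junction complex, was lower in every AdArmc5 KO library, at 44.2 ± 1.53 against 53.0 ± 8.17 FPKM (log2 fold change −0.25, standard error 0.14, adjusted p = 0.98 from limma). *Eif4ebp1* and *Eif4ebp2*, which hold the cap-binding protein inactive, were at −0.39 and −0.36 on the log2 scale (adjusted p = 0.98 each, limma). The noncoding RNA *Snora81*, which lies inside *Eif4a2*, was counted with at most 8 fragments in any library.

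*Kng1* encodes a kininogen, the plasma precursor from which kallikreins release bradykinin. It was near the floor of the measurement in Armc5 flox, with 1, 0 and 2 fragments, and had 11, 10 and 12 fragments in the AdArmc5 KO libraries. Every AdArmc5 KO library thus held several times as many fragments as any Armc5 flox library. In FPKM these were 0.0187, 0 and 0.0348 against 0.269, 0.166 and 0.174, where a count of 0 allows up to 0.0606 FPKM (3 fragments) in Armc5 flox replicate 2. This floor, like those given below, covers counting error only and not the spread between mice. On log2(FPKM + 1) the fold change was 0.24, a scale that shrinks genes at this level.

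*Kng2*, the second kininogen gene of the mouse, was measured with 22, 30 and 18 fragments in the Armc5 flox libraries and 148, 66 and 28 in the AdArmc5 KO libraries. Its FPKM was 0.453, 0.744 and 0.463 against 4.29, 1.43 and 0.443. AdArmc5 KO replicates 1 and 2 lay above all Armc5 flox libraries, and the library labelled AdArmc5 KO replicate 3 was the lowest of all 6, so the genotypes overlapped. The ratio of summed, scaled fragments was 3.18, and the log2 fold change of 0.77 became 0.27 when AdArmc5 KO replicate 1 was left out and 1.21 when the library labelled replicate 3 was. AdArmc5 KO replicate 1 also had the highest FPKM of *Adipoq*, *Rfc4* and *Kng1* among the 6 libraries.

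**Figure D2:**
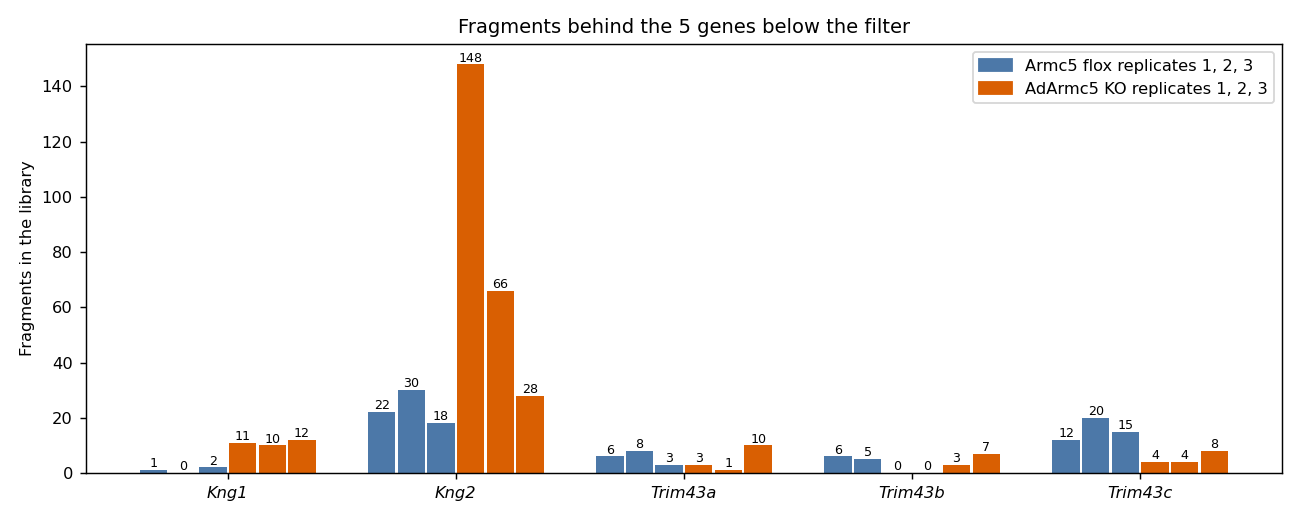
Fragments (vertical axis, starting at 0) behind the 5 genes that did not reach an FPKM of 1 in 3 libraries, with a bar and its count for Armc5 flox replicates 1, 2 and 3 (blue) and AdArmc5 KO replicates 1, 2 and 3 (orange). *Kng1* has 0 to 2 fragments in Armc5 flox and 10 to 12 in AdArmc5 KO, *Kng2* ranges from 28 to 148 within AdArmc5 KO, and the *Trim43* genes never exceed 20 fragments.

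The kallikrein-kinin list held 17 genes besides the kininogens. Its 8 tested genes had a median log2 fold change of 0.15, 5 above and 3 below 0, and 0 had a p under 0.05. The summed FPKM of the list was 429 to 476 in Armc5 flox and 477 to 625 in AdArmc5 KO. Most of it came from *Serping1*, the C1 inhibitor that also restrains plasma kallikrein, at 261 ± 42.3 and 320 ± 66.0 FPKM (SD, n = 3 each, log2 fold change 0.28, adjusted p = 0.98 from limma), and from *Serpina3c*, a serine protease inhibitor, at 79.0 ± 33.02 and 117 ± 17.3. *Mme*, the peptidase neprilysin that degrades bradykinin, and *Prcp*, a carboxypeptidase that activates prekallikrein, were at 0.50 and 0.25 on the log2 scale (adjusted p = 0.98 each, limma).

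Since kininogens are liver products, other liver-secreted plasma proteins were examined beside them. Of 19 such genes 3 were tested, with 2 above and 1 below 0 and 0 with a p under 0.05. The summed FPKM of all 19 was 9.76 to 11.3 in Armc5 flox and 13.1 to 19.8 in AdArmc5 KO. *Alb*, the gene of serum albumin, ran at 4.11, 5.54 and 2.60 FPKM in the Armc5 flox libraries and at 9.40, 4.45 and 5.21 in the AdArmc5 KO libraries. The groups overlapped, and the highest *Alb* was in AdArmc5 KO replicate 1, the library with the highest *Kng1* and *Kng2*. *Ahsg* and *Serpina1b*, an alpha-1-antitrypsin gene, were the only ones of the 19 that were higher in every AdArmc5 KO library, and none was lower in every one. Over all 24346 genes these shares were 3.44% and 3.04%. *Ahsg*, *Fetub* and *Hrg* of this list are also chromosome 16 neighbours of the kininogen genes, so they are no separate gauge of liver transcripts. The part of liver transcripts in the kininogen values was not tested.

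A window of 1 Mb on either side of the start of *Adipoq* held 23 other genes in the annotation, all with measured values, of which 10 were tested. Their median log2 fold change was 0.03, with 5 above and 5 below 0, and 0 passed the adjusted threshold. A p under 0.05 was given to 1 of them. *Rtp4*, an interferon-induced chaperone of receptors, had an FPKM of 4.81, 7.57 and 7.86 in the Armc5 flox libraries and 21.9, 16.5 and 29.5 in the AdArmc5 KO libraries. Every AdArmc5 KO library lay well above every Armc5 flox library, with a log2 fold change of 1.60 (standard error 0.26, unadjusted p = 0.00072, adjusted p = 0.65, limma), between 1.39 and 1.79 with each library left out. The left end of *Rtp4* lies 374 kb beyond that of *Adipoq*. Between these ends begins *Masp1*, the gene of a protease of the lectin pathway of complement, which overlaps *Rtp4* at its right end. *Masp1* had an FPKM of 0.770, 0.609 and 19.5 in Armc5 flox and 0.761, 1.11 and 9.81 in AdArmc5 KO. With replicate 3 far above the others in each group, its log2 fold change of −0.18 was poorly determined (standard error 1.17, adjusted p = 0.999, limma). *St6gal1*, a sialyltransferase and the nearest measured gene on the far side of *Adipoq*, stood at 7.81 ± 1.01 and 8.55 ± 1.31 FPKM (SD, n = 3 each, log2 fold change 0.11, adjusted p = 0.98).

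On the side of the kininogen genes, the nearest genes are *Hrg*, *Fetub* and *Ahsg*, which encode further liver-secreted plasma proteins of the cystatin superfamily to which kininogens belong. None of them was tested, because their FPKM was low. *Ahsg*, the gene of fetuin-A, had an FPKM of 0.774, 0.612 and 0.275 in the Armc5 flox libraries and 2.90, 1.12 and 0.836 in the AdArmc5 KO libraries. Every AdArmc5 KO library lay above every Armc5 flox library, and AdArmc5 KO replicate 1 was again the highest. *Fetub* ranged from 0.229 to 0.584 in Armc5 flox and from 0.430 to 1.67 in AdArmc5 KO and overlapped, and *Hrg* had at most 2 fragments in any library. *Dnajb11*, a chaperone of the endoplasmic reticulum on the far side of these genes, had a log2 fold change of 0.07 (adjusted p = 0.98, limma). At the other end of the window, *Bcl6*, a transcriptional repressor, stood at 29.4 ± 7.61 FPKM in Armc5 flox and 17.1 ± 7.27 in AdArmc5 KO (SD, n = 3 each, log2 fold change −0.81, adjusted p = 0.98, limma), with −0.45 when AdArmc5 KO replicate 2 was left out.

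**Figure D3:**
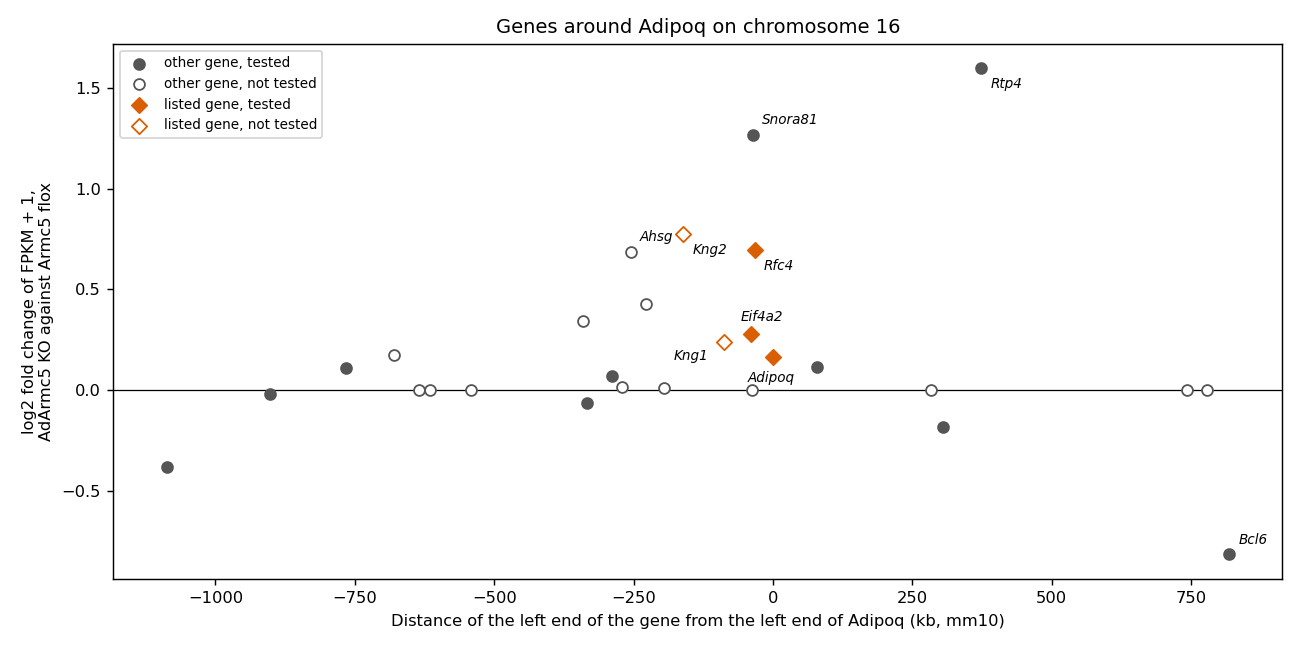
Log2 fold change of FPKM + 1, AdArmc5 KO against Armc5 flox (vertical axis), against the distance in kb of the left end of each gene from the left end of *Adipoq* (horizontal axis), for the 5 listed genes (orange diamonds) and the 23 other genes of the window (grey circles), with filled symbols for tested genes. The listed genes lie between 0.16 and 0.77, and beyond them *Rtp4* at 1.60, *Snora81* at 1.27 and *Bcl6* at −0.81 stand farthest from 0.

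On chromosome 9, *9330159M07Rik* was the listed gene with the lowest level in AdArmc5 KO relative to Armc5 flox. Its FPKM was 1.33, 4.59 and 3.63 in the Armc5 flox libraries and 0.230, 0.717 and 0.689 in the AdArmc5 KO libraries. All AdArmc5 KO libraries lay below all Armc5 flox libraries, and Armc5 flox replicate 1 was the one nearest to them. The fragments were 115, 329 and 251 against 14, 59 and 71. The means of 3.18 ± 1.67 and 0.545 ± 0.274 (SD, n = 3 each) put AdArmc5 KO at 17.1% of Armc5 flox, and the ratio of summed, scaled fragments was 0.190. The log2 fold change of −1.36 ranged from −1.74 to −1.10 with each library left out.

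*Trim43c*, which overlaps *9330159M07Rik* on the opposite strand, belongs to a family of tripartite motif proteins whose mouse genes are known from preimplantation embryos. It was measured with only 12, 20 and 15 fragments in the Armc5 flox libraries and 4, 4 and 8 in the AdArmc5 KO libraries. The corresponding FPKM were 0.196, 0.393 and 0.306 against 0.0920, 0.0686 and 0.109. The genotypes did not overlap, and Armc5 flox replicate 1 was again nearest to AdArmc5 KO. The ratio of summed, scaled fragments was 0.313. Because 38.6% of its exon bases lie opposite *9330159M07Rik*, whose level was higher in every library, part of these fragments may belong to the noncoding gene, which was not tested.

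Both paralogs were at the floor. *Trim43a* had 6, 8 and 3 fragments in the Armc5 flox libraries and 3, 1 and 10 in the AdArmc5 KO libraries. *Trim43b* had 6, 5 and 0 against 0, 3 and 7, where a count of 0 allows up to 0.0532 FPKM in the Armc5 flox library and 0.0600 in the AdArmc5 KO library concerned. Neither gene separated the genotypes, and a difference was not detectable at this depth, with ratios of summed, scaled fragments of 0.757 and 0.836. Of 14 other genes of oocytes and preimplantation embryos in the table, 9 were at 0 in all 6 libraries and none was tested. *Gdf9* and *Zp3*, oocyte genes named here outside the rule, reached 0.875 and 0.402 FPKM at most.

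*Tbx18*, a T-box transcription factor known from mural cells of blood vessels and from embryonic mesothelium, lies apart from the *Trim43* genes. Its FPKM was 0.934, 1.75 and 1.91 in the Armc5 flox libraries and 1.26, 0.822 and 0.784 in the AdArmc5 KO libraries. Armc5 flox replicate 1 lay among the AdArmc5 KO libraries, so the genotypes overlapped. The fragments were 142, 221 and 233 against 136, 119 and 143, and the means were 1.53 ± 0.525 and 0.955 ± 0.265 FPKM (SD, n = 3 each). The log2 fold change of −0.36 became −0.54 when Armc5 flox replicate 1 was left out and −0.25 when replicate 3 was.

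Markers of cell types known to express *Tbx18* were examined beside it. The 9 tested mesothelial markers had a median log2 fold change of −0.67, 7 of them below 0, with 1 under an unadjusted p of 0.05, and their summed FPKM ranged from 51.6 to 254 in Armc5 flox and from 10.4 to 204 in AdArmc5 KO. That median was −0.16 without AdArmc5 KO replicate 1. The highest sums were those of Armc5 flox replicate 1 and AdArmc5 KO replicate 2, the libraries with high *Foxj1*, and most of them came from the keratin genes *Krt8* (97.6 and 88.9 FPKM), *Krt18* (61.1 and 55.9) and *Krt19* (72.4 and 37.7), named outside the rule and also expressed by other epithelia. *Upk3b*, a surface protein of mesothelium, stood at 15.6 ± 9.38 and 5.57 ± 4.12 FPKM, and *Msln*, mesothelin, at 7.11 ± 2.90 and 3.32 ± 2.73 (SD, n = 3 each). The 11 mural cell markers went both ways with a median of 0.35 and summed FPKM of 525 to 1068 and 896 to 1290. That median was −0.04 without the library labelled AdArmc5 KO replicate 3 and 0.14 without AdArmc5 KO replicate 1. Among them, *Rgs5* of pericytes was higher (log2 fold change 0.46, unadjusted p = 0.036, adjusted p = 0.98, limma) and the channel gene *Kcnj8* lower (−0.44, unadjusted p = 0.028, adjusted p = 0.98) in every AdArmc5 KO library. The part of either cell type in the *Tbx18* values was not tested. Among 16 other T-box genes 5 were tested, with 1 above and 4 below 0 and a median of −0.02, and *Tbx3*, the T-box gene of several mesenchymal cell types, was level at 5.16 ± 0.743 and 5.11 ± 1.54 FPKM (log2 fold change −0.04, standard error 0.21, adjusted p = 0.999 from limma).

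The chromosome 9 window, from 1 Mb before *Tbx18* to 1 Mb beyond *Trim43c*, held 22 other genes, of which 12 were tested. Their median log2 fold change was 0.02, with 7 above and 5 below 0, 0 passed the adjusted threshold, and 1 had an unadjusted p under 0.05. *Mthfsl*, a paralog of *Mthfs*, the methenyltetrahydrofolate synthetase gene of the same window, had an FPKM of 9.20, 12.4 and 11.01 in the Armc5 flox libraries and 8.15, 7.66 and 8.79 in the AdArmc5 KO libraries. The genotypes were apart by a small margin, with AdArmc5 KO the lower (log2 fold change −0.36, standard error 0.14, unadjusted p = 0.042, adjusted p = 0.98, limma). *Mthfs* itself was at 0.04 on the log2 scale (adjusted p = 0.99, limma). The noncoding gene *9430037G07Rik*, which shares sequence with *9330159M07Rik*, was not tested and was also lower in every AdArmc5 KO library, at 0.987, 1.73 and 2.64 FPKM against 0.556, 0.622 and 0.740. *Bcl2a1a*, an antiapoptotic gene of leukocytes with near-identical copies in this window, was higher in every AdArmc5 KO library, at 0.619, 0.573 and 0.0596 against 2.28, 0.755 and 0.908, on at most 34 fragments.

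*Zfp949*, a zinc finger gene between *Tbx18* and the *Trim43* genes, had an FPKM of 17.7, 3.62 and 4.07 in the Armc5 flox libraries and 22.4, 16.1 and 15.4 in the AdArmc5 KO libraries. Armc5 flox replicate 1 was at the level of AdArmc5 KO and the other Armc5 flox libraries were far lower. The log2 fold change was 1.30 (standard error 0.54, unadjusted p = 0.052, adjusted p = 0.98, limma) and 1.95 without Armc5 flox replicate 1. The same library was the Armc5 flox library nearest to AdArmc5 KO for *9330159M07Rik*, *Trim43c*, *9430037G07Rik* and *Mthfsl*, all within the stretch from *Zfp949* to *9330159M07Rik*, a pattern noticed after the values were seen and not tested. *Trim43a*, in the same stretch, overlapped between the genotypes, as did *Bcl2a1d*, a further copy of the *Bcl2a1* family, at 1.43, 1.83 and 0.774 FPKM in Armc5 flox and 1.54, 1.16 and 0.948 in AdArmc5 KO (log2 fold change −0.06, adjusted p = 0.99, limma). The pattern was not confined to that stretch. Armc5 flox replicate 1 was also the Armc5 flox library nearest to AdArmc5 KO for *Tbx18* and *Bcl2a1a*. For *Bcl2a1b*, a further copy outside the stretch, it lay within the AdArmc5 KO range, at 4.62 FPKM against 4.14 to 10.3. Armc5 flox replicate 1 was also one of the libraries with high *Foxj1*, whose part in these values was not tested. On the *Tbx18* side of *Zfp949*, the nearest tested gene was *Snhg5*, a noncoding host gene of small nucleolar RNAs, at 16.3, 19.6 and 52.8 FPKM in Armc5 flox and 11.6, 21.5 and 18.6 in AdArmc5 KO. The genotypes overlapped (log2 fold change −0.60, standard error 0.46, adjusted p = 0.98, limma), with Armc5 flox replicate 3 far above the rest. *Snx14*, *Syncrip* and *Nt5e*, farther on that side and encoding a sorting nexin, an RNA-binding protein and the ectonucleotidase CD73, overlapped between genotypes, with log2 fold changes of 0.00, −0.09 and 0.35 (adjusted p of 0.999, 0.984 and 0.985, limma).

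**Figure D4:**
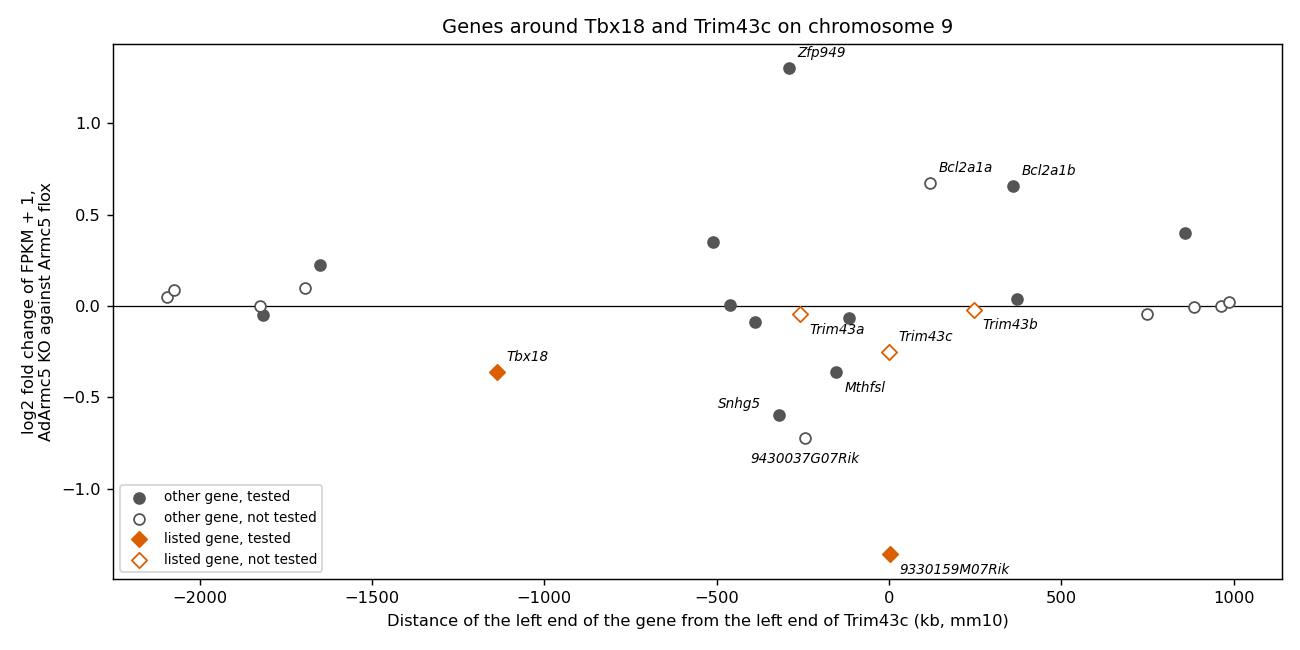
Log2 fold change of FPKM + 1, AdArmc5 KO against Armc5 flox (vertical axis), against the distance in kb of the left end of each gene from the left end of *Trim43c* (horizontal axis), for the 5 listed genes (orange diamonds) and the 22 other genes of the window (grey circles), with filled symbols for tested genes. *9330159M07Rik* at −1.36 and *Zfp949* at 1.30 stand farthest from 0, and *Tbx18* lies at −0.36.

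**Figure D5:**
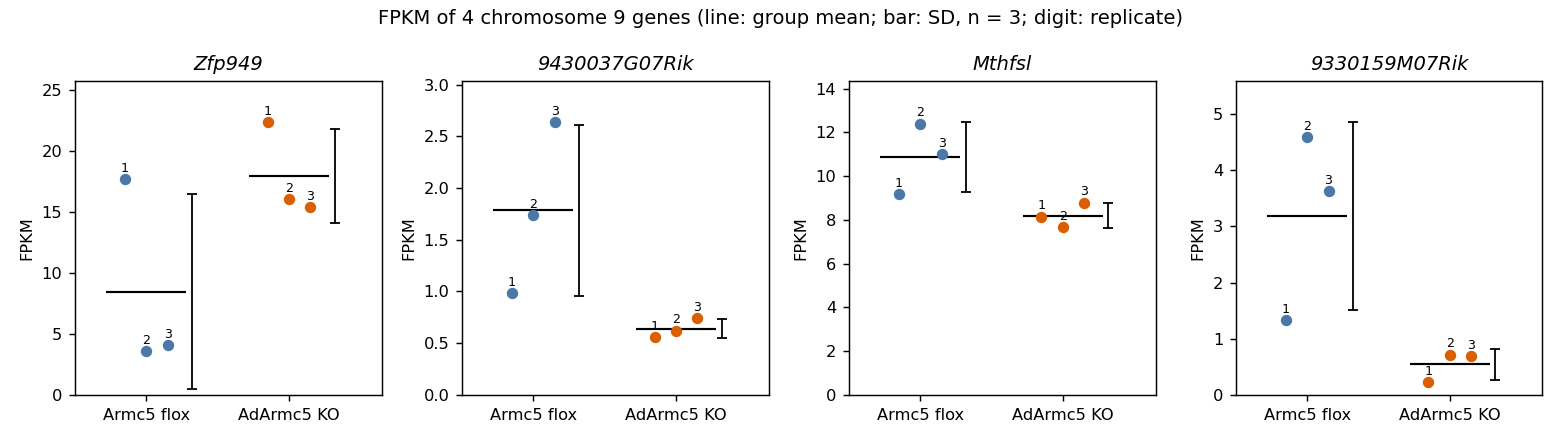
FPKM (vertical axis from 0, separate scale for each gene) of *Zfp949*, *9430037G07Rik*, *Mthfsl* and *9330159M07Rik* in each library, with the replicate number beside the point, the group mean as a line and the SD as a bar (n = 3). In each panel the point of Armc5 flox replicate 1 is the blue point nearest to the orange AdArmc5 KO points, and in *Zfp949*, at 17.7 FPKM, it lies within their range of 15.4 to 22.4.

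FPKM are scaled to length, so levels can be set side by side between genes. In Armc5 flox the mean FPKM fell from *Adipoq* (2619.8) through *Eif4a2* (140.0), *Rfc4* (4.19), *9330159M07Rik* (3.18), *Tbx18* (1.53), *Kng2* (0.554), *Trim43c* (0.298), *Trim43a* (0.115) and *Trim43b* (0.0569) to *Kng1* (0.0179). Neighbours in this order whose libraries overlapped were *Rfc4* with *9330159M07Rik*, *9330159M07Rik* with *Tbx18*, *Trim43a* with *Trim43b*, and *Trim43b* with *Kng1*. In AdArmc5 KO the order became *Adipoq* (3016), *Eif4a2* (169), *Rfc4* (7.42), *Kng2* (2.05), *Tbx18* (0.955), *9330159M07Rik* (0.545), *Kng1* (0.203), *Trim43c* (0.0898), *Trim43a* (0.0808) and *Trim43b* (0.0425). There *Kng2* overlapped with *Tbx18*, *9330159M07Rik* with *Kng1*, *Trim43c* with *Trim43a*, and *Trim43a* with *Trim43b*. *Kng1* thus moved from the last place to the seventh and *9330159M07Rik* from the fourth to the sixth.

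For the 5 tested genes, the genes with the most similar pattern were sought among 12669 others by the Pearson correlation of log2(FPKM + 1) over the 6 libraries, which share depth, genotype and cell makeup. With so few libraries, high values are common, and they are given as a description. *Adipoq* was closest to *Heph* (r = 0.99), a copper-containing ferroxidase, *Lysmd1* (0.99) and *Mknk1* (0.99). *Rfc4* was closest to *Slc18a1* (0.99), a vesicular monoamine transporter, *S100b* (0.97), a calcium-binding protein also found in adipocytes, and *Gmppa* (0.97), while its r with *Eif4a2*, its overlapping neighbour, was 0.71. *Eif4a2* was closest to *Ptpn3* (0.98), *Flna* (0.98), which encodes the actin cross-linker filamin A, and *Cdc42ep3* (0.98). *Tbx18* was closest to *Pef1* (0.999), *Arl5b* (0.998) and *Ybx1* (0.995), and *9330159M07Rik* to *Grrp1* (0.99), *Rps6kb1* (0.98), the S6 kinase, and *Sema6a* (0.97). None of the listed neighbours was among the 3 most similar genes of another listed gene, and *Adipoq* had an r of 0.31 with *Rfc4* and 0.19 with *Eif4a2*. Between tested listed genes, r was highest for *Tbx18* with *9330159M07Rik*, at 0.77. *Tbx18* there ranked 528 of the 12669 genes compared with *9330159M07Rik*.

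Markers of other cells of the tissue also differed in level between libraries, which bears on low genes in whole-tissue RNA. The 14 macrophage markers had a median log2 fold change of 0.46, 13 above and 1 below 0, with 2 under an unadjusted p of 0.05, among them *Fcgr1*, an Fc receptor (2.71 ± 0.723 against 6.01 ± 0.0701 FPKM, SD, n = 3 each, adjusted p = 0.73 from limma). Summed, they ran from 1049.6 to 2045 FPKM in Armc5 flox and from 1337 to 2314 in AdArmc5 KO. The 10 progenitor and fibroblast markers had a median of 0.27, with 3 under an unadjusted p of 0.05, and *Lum*, the matrix proteoglycan lumican, stood at 38.0 ± 2.63 and 59.7 ± 10.8 FPKM. The 10 endothelial markers had a median of −0.12, and *Kdr*, a receptor of VEGF, was lower in every AdArmc5 KO library (log2 fold change −0.49, standard error 0.14, adjusted p = 0.98 from limma). The 5 tested ciliated cell markers had a median of 0.06 and the 4 tested duct markers one of 0.86, and with each library left out these ran from −0.88 to 0.79 and from 0.11 to 2.31. Whether these cells hold part of the listed genes' values was not tested.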

How the data were processed

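Libraries were stranded and poly(A)-selected. The submitters' processing notes name mm10, TopHat2 2.0.13, Bowtie2 2.2.3 and SAMtools 0.1.19 for the paired reads of 100 bases. Annotation, options and use of strand: not given in the sources used here. FPKM of 24346 genes were deposited and had been made by the authors with Cuffnorm (version 2.2.1). The deposited normalized counts, a signal scaled by a factor for each library, were divided by the value of 1 fragment, of which 98.7% to 99.0% were whole multiples within 0.1. The depth of a library is the sum of these fragments. They were not taken as raw reads, so no count test was run. The authors' own fold changes and p-values and a further 6 columns of per-sample log2 values were not used.

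limma (version 3.58.1, R version 4.3.3) was fitted on log2(FPKM + 1) with 1 coefficient for genotype, a trended prior variance and Benjamini-Hochberg adjustment across the 12670 genes that reached 1 FPKM in 3 or more of 6 libraries, after the code was tested on simulated data. An exact test of 3 against 3 was not used. Positions came from RefSeq (GRCm38.p6), which placed 24260 genes, and exons and transcripts from GENCODE. The genes described and the 15 lists were chosen with earlier results of these data known. Named genes were the 10 genes, *Armc5*, *Foxj1*, *Akr1b7* and *Crisp1*, window genes, up to 4 tested genes with the smallest p in each list, and the 3 genes most similar to each tested one. Exceptions are marked. Alternatives were other pseudocounts, filters, scalings and variance models, the replicate block, the normalized counts and libraries left out.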

Additional observations from a re-analysis of the deposited data

How the results depend on the processing

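No gene passed an adjusted p under 0.05 in limma (0 higher and 0 lower in AdArmc5 KO) with the main settings or under any of the 16 alternatives, which included each library left out, the replicate block, and, chosen after seeing the data, both libraries with genes of ciliated cells left out. Of 160 values of the 10 genes under the alternatives, 155 kept their sign and 5 did not, those of *Adipoq* without Armc5 flox replicate 1 (−0.05) or without AdArmc5 KO replicate 1 (−0.11) and 3 of *Trim43b*, near 0. The size of low genes depended on the pseudocount and the unit. With a pseudocount of 0.1 the log2 fold change was 1.36 for *Kng1*, −0.29 for *Trim43a*, −0.13 for *Trim43b*, −1.04 for *Trim43c* and −2.29 for *9330159M07Rik*, and with 0.5 it was 0.44 for *Kng1* and −0.43 for *Trim43c*. With the normalized counts it was 2.67 for *Kng1*, −0.65 for *Tbx18*, −0.59 for *Trim43a*, −0.26 for *Trim43b*, −1.52 for *Trim43c* and −2.51 for *9330159M07Rik*. Quantile normalization gave −0.35 for *Trim43c*. A smaller pseudocount shrinks low genes less by construction. Leaving out each library in turn gave −0.11 to 0.44 for *Adipoq*, 0.62 to 0.80 for *Rfc4*, 0.17 to 0.39 for *Eif4a2*, 0.20 to 0.26 for *Kng1*, 0.27 to 1.21 for *Kng2*, −0.54 to −0.25 for *Tbx18*, −0.31 to −0.20 for *Trim43c*, −1.74 to −1.10 for *9330159M07Rik* and −0.35 to −0.08 for *Armc5*. Of 224 list medians, 13 moved by more than 1 SD and 16 changed sign, without a test.

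Deviations from the group means correlated at −0.53, −0.41 and 0.58 between same-numbered libraries, for replicates 1, 2 and 3. Only replicate 3 correlated best with its own number. Armc5 flox replicate 1 did so with AdArmc5 KO replicate 2 (0.75), and Armc5 flox replicate 2 with AdArmc5 KO replicate 1 (0.68). The libraries of the 0.75 match are those with high *Foxj1*, so cell makeup enters these values. They are a hint from the data and cannot decide whether the numbers pair the libraries. With the replicate block 0 genes were called. The planned tests of whole fragments with edgeR and DESeq2 were not run. Genes with few fragments are limited by depth, among them the *Trim43* genes and *Kng1*, and *Kng2* and *9330159M07Rik* in the libraries where they had 18 and 14 fragments.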
